A study of Mus musculus with 10 samples.

Results

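The 6 cytokine genes described here are Il6, Il11, Lif, Il12b, Il1a and Il1b, members of the IL-6, IL-12 and IL-1 families, out of 16290 genes in the deposited table. They were picked from values of the same libraries, because Il12b and Il11 were lower and Il6 was higher in some groups than in the NIC group. Their differences from NIC are therefore given as a description without a test. Mammary epithelial cells of FVB mice gave the RNA, and had been freed from mammary glands number 3 and 4 with enzymes and collected by short spins of a centrifuge. The 10 libraries fall into NIC-Prmt1 (3 libraries), NIC-Carm1 (3), NIC-Prmt6 (2) and NIC (2), which are the genotypes as labelled. All 4 groups carry the NIC genotype, whose name is not spelled out in the labels, and the first 3 add a transgene for a protein arginine methyltransferase (PRMT), an enzyme that methylates arginines in histones and other proteins. No treatment is labelled. The promoter of the transgenes, the age of the mice and the number of mice behind each library do not stand in the sources used here, so the p-values measure only the spread between these libraries. The question of the study was which genes change in these cells when a PRMT is overexpressed.

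Cytokines of the IL-6 family (Il6, Il11 and Lif here) signal through a shared receptor chain, gp130, which is paired with a chain specific to each ligand and activates the transcription factor STAT3 by way of JAK kinases. Il12b encodes p40, the subunit that IL-12 and IL-23 have in common, and activated dendritic cells and macrophages are known for making it. Il1a and Il1b encode IL-1 alpha and IL-1 beta, which act on the same receptor, and IL-1 beta is cut from its precursor by an inflammasome protease. In the mammary gland, LIF is known for driving STAT3 at the onset of involution, and IL-6 is known as a product of fibroblasts and other stromal cells as well as of immune cells.

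The libraries held between 21589274 and 30260921 recovered reads. Replicates 2 and 3 of NIC-Carm1 and both NIC-Prmt6 replicates were nearly alike, with a chi-square over degrees of freedom of 2.65 and 2.41, and 27.2 to 101 in all remaining pairs of a group. As even these exceed the value that counting noise alone gives, no libraries were merged, and the counts below were also taken with them averaged. That excess does not show that the libraries of such a pair are separate samples, which the sources used here do not state. If they are not, the SDs of these groups and the p-values that rest on them understate the spread between samples. Of the targeted genes, Prmt6 had a mean normalised read count of 891 in the libraries labelled NIC-Prmt6, against 326 in NIC-Prmt1, 264 in NIC-Carm1 and 419 in NIC. Carm1 averaged 2316 in NIC-Carm1 and 2364 in NIC-Prmt6 against 1562 in NIC, and Prmt1 averaged 2975 in NIC-Prmt1 against 2876 in NIC, so the targeted gene marks only the NIC-Prmt6 label. Markers of cells other than epithelium were present in every group. Those of luminal epithelium (5 of 5 genes in the table) summed to a normalised read count of 140310 to 195163 in NIC-Prmt1, 120323 to 150816 in NIC-Carm1, 131882 to 132887 in NIC-Prmt6 and 228868 to 271000 in NIC.

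The 250 bases before the transcription start are shown for Il6, Il11 and Il12b, of which Il6 was higher than NIC in 2 PRMT groups while Il11 and Il12b were lower than NIC in all 3. The sequences are RefSeq promoters of GRCm38.p6 (mm10), written 5′ to 3′ on the strand of the gene, and capitals mark matches on either strand to a motif of NF-kB (GGG and TTCC with 3 bases between them), AP-1 (TGANTCA), C/EBP (TTNNGNAA) or STAT factors (TTCNNNGAA). The window of Il6 is chr5:30012864-30013113 on the plus strand, that of Il11 is chr7:4778142-4778391 on the minus strand and that of Il12b is chr11:44399813-44400062 on the plus strand.
Il6 promoter: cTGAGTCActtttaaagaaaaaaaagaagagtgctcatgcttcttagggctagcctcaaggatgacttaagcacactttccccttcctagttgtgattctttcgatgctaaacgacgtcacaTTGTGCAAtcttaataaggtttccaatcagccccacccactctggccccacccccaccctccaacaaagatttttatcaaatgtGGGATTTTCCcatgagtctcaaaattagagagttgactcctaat
Il11 promoter: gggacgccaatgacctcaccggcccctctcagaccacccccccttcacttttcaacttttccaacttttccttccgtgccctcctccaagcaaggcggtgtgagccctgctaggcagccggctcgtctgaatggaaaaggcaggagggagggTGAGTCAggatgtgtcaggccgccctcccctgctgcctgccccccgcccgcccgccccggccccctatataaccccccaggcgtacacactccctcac
Il12b promoter: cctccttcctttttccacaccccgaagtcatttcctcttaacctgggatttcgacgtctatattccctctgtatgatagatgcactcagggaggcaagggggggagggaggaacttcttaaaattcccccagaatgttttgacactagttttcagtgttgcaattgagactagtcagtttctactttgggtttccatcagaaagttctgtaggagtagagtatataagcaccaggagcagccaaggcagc
The Il6 window held an AP-1 match 249 to 243 bases before the start, a C/EBP match at 128 to 121 and an NF-kB match at 44 to 35. The Il11 window, at the downstream of 2 RefSeq starts, held an AP-1 match at 98 to 92, and the window at the other start held no match. No motif was matched in the Il12b window. Of the members not printed, Lif held an AP-1 match, Il1a held AP-1 and C/EBP matches and Il1b held a C/EBP match, so AP-1 letters were found before genes that were higher and genes that were lower than in NIC. Among 32851 RefSeq promoters, 4.65% held the NF-kB letters, 6.75% the AP-1 letters, 36.8% the C/EBP letters and 7.02% the STAT letters. A match describes the letters only, and binding was not measured.

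Among the IL-6 family ligands, Il6, which is on chromosome 5 (30013114 to 30019981, plus strand, protein coding), was the only member with a higher level in any PRMT group than in NIC. Its normalised read count was 6166, 5536 and 5618 in NIC-Prmt1, 2279.7, 2863 and 2853 in NIC-Carm1, 8243 and 8296 in NIC-Prmt6, and 3356 and 3341 in NIC. The libraries of the 4 groups did not overlap, and the order was NIC-Prmt6, NIC-Prmt1, NIC and NIC-Carm1 from high to low. The means were 5773 ± 342 (SD, n = 3) in NIC-Prmt1, 2665 ± 334 (SD, n = 3) in NIC-Carm1, 8269 ± 37.1 in NIC-Prmt6 and 3349 ± 10.6 in NIC (SD, n = 2 each). On the scale of log2(value + 1), the difference from NIC was 0.78 ± 0.11 (SE) in NIC-Prmt1, -0.34 ± 0.11 in NIC-Carm1 and 1.30 ± 0.12 in NIC-Prmt6. That places NIC-Prmt6 2.47-fold and NIC-Prmt1 1.72-fold above NIC, and NIC-Carm1 1.26-fold below it. On the same log2 scale, the difference was 1.12 ± 0.10 in NIC-Prmt1 against NIC-Carm1, -0.52 ± 0.11 in NIC-Prmt1 against NIC-Prmt6 and -1.64 ± 0.11 in NIC-Carm1 against NIC-Prmt6.

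Lif, which is on chromosome 11 (4257557 to 4272514, plus strand, protein coding), was highest in the NIC libraries. Its normalised read count was 2656, 3595 and 3784 in NIC-Prmt1, 3029.9, 1589.8 and 1565 in NIC-Carm1, 3188 and 3249 in NIC-Prmt6, and 8377 and 9690.1 in NIC. Every library with a PRMT transgene lay below both NIC libraries, and replicate 1 of NIC-Carm1 lay apart from the other NIC-Carm1 libraries, within the range of NIC-Prmt1. The difference from NIC was -1.45 ± 0.26 in NIC-Prmt1, -2.20 ± 0.26 in NIC-Carm1 and -1.48 ± 0.29 in NIC-Prmt6 (log2, ± SE). Among the PRMT groups, Lif passed the test only in NIC-Prmt1 against NIC-Carm1, at 3345 ± 604 (SD, n = 3) and 2062 ± 839 (SD, n = 3). The choice of members named differences from NIC, but it was made with the values of all groups known. The p-values between PRMT groups are therefore not independent of that choice. The log2 difference there was 0.75 ± 0.23 (limma adjusted p = 0.0391 over 15694 genes), the libraries overlapped, and 14.9% of all genes tested were called higher in that comparison. The call ended in 12 of 21 alternatives, among them leaving out any library except NIC-Prmt1 replicate 1 and NIC-Carm1 replicate 1, and the adjusted p ran from 0.00195 to 0.183 over all 21. In NIC-Carm1 against NIC-Prmt6 the log2 difference was -0.71 ± 0.26 (95% interval of the log2 difference -1.30 to -0.13, limma adjusted p = 0.0531). That difference passed the threshold with DESeq2, without NIC-Prmt1 replicate 1 and without NIC-Carm1 replicate 1, and the adjusted p ran from 0.00131 to 0.339 over all alternatives. Between NIC-Prmt1 and NIC-Prmt6 the log2 difference was 0.04, with an interval of -0.55 to 0.62 (limma adjusted p = 0.942).

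Il11, a relative of IL-6 with its own receptor chain, is on chromosome 7 (4772373 to 4782859, minus strand, protein coding) and was the least abundant of the 3 IL-6 family members per kilobase of exon. Its normalised read count was 56.2, 36.3 and 57.9 in NIC-Prmt1, 31.5, 16.4 and 25.2 in NIC-Carm1, 45.3 and 45.6 in NIC-Prmt6, and 519.7 and 159 in NIC. Every PRMT library lay below both NIC libraries, and the NIC libraries lay further apart than those of any PRMT group. The values rest on 20 to 56 reads in the PRMT libraries and on 550 and 122 reads in NIC. Il11 was 5.76-fold lower in NIC-Prmt1, 11.7-fold lower in NIC-Carm1 and 6.21-fold lower in NIC-Prmt6 than in NIC, with log2 differences of -2.53 ± 0.47, -3.55 ± 0.47 and -2.63 ± 0.51 (± SE). The folds changed with the NIC library left out. Without NIC replicate 1 the folds were 3.19 in NIC-Prmt1, 6.49 in NIC-Carm1 and 3.44 in NIC-Prmt6, and without NIC replicate 2 they were 10.4, 21.2 and 11.2 in the same groups.

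Il12b is on chromosome 11 (44400063 to 44414033, plus strand, protein coding). Its normalised read count was 9.55, 20.7 and 9.30 in NIC-Prmt1, 9.01, 61.7 and 75.6 in NIC-Carm1, 96.9 and 71.4 in NIC-Prmt6, and 429 and 525 in NIC. Every PRMT library lay below both NIC libraries, and among the PRMT groups NIC-Carm1 overlapped both of the others. The lowest values rest on few reads. NIC-Prmt1 had 9, 20 and 9 reads, and 9 reads have an exact 95% Poisson interval of 4.12 to 17.1 reads, which covers counting error only. Il12b was 35.7-fold lower in NIC-Prmt1, 13.1-fold lower in NIC-Carm1 and 5.65-fold lower in NIC-Prmt6 than in NIC, with log2 differences of -5.16 ± 0.74, -3.71 ± 0.74 and -2.50 ± 0.81 (± SE). Replicate 1 of NIC-Carm1 had 8 reads against 75 and 78 in the other NIC-Carm1 libraries, and without it NIC-Carm1 was 6.86-fold lower than NIC. The subunits that pair with p40 were measured too. Il23a, which encodes the p19 subunit of IL-23, had 46.7, 64.2 and 82.7 in NIC-Prmt1, 107, 45.2 and 40.7 in NIC-Carm1, 39.8 and 42.1 in NIC-Prmt6, and 129 and 140.4 in NIC (normalised read count). All PRMT libraries lay below NIC for Il23a too. In NIC-Prmt6 it fell by 1.69 ± 0.44 on the log2 scale (limma adjusted p = 0.0135, and up to 0.0841 over the alternatives). In the comparisons of NIC-Prmt1 and NIC-Carm1 with NIC its limma adjusted p was 0.0631 and 0.0681. Il12a, which encodes the p35 subunit of IL-12, had a normalised read count of 1.03 to 18.9 over all libraries, and no comparison with NIC passed the test.

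The IL-1 genes lie near each other on chromosome 2 on the minus strand, Il1a at 129299610 to 129309972 and Il1b at 129364570 to 129371139, and both are protein coding. Il1a had a normalised read count of 104, 201 and 174 in NIC-Prmt1, 121, 268 and 273 in NIC-Carm1, 213 and 191 in NIC-Prmt6, and 574 and 696 in NIC. Il1b had 285, 929 and 508 in NIC-Prmt1, 440.4, 1013 and 924 in NIC-Carm1, 1002 and 982 in NIC-Prmt6, and 1407 and 1625 in NIC. Every PRMT library lay below both NIC libraries for both genes, and replicate 1 was the lowest library of NIC-Prmt1 and of NIC-Carm1 for both. Il1a differed from NIC by -2.03 ± 0.37 in NIC-Prmt1, -1.61 ± 0.37 in NIC-Carm1 and -1.64 ± 0.40 in NIC-Prmt6 (log2, ± SE). Il1b differed from NIC by -1.56 ± 0.45, -1.02 ± 0.45 and -0.61 ± 0.49 in the same groups. Neither gene passed the test between PRMT groups. For Il1a, the log2 difference was -0.43 in NIC-Prmt1 against NIC-Carm1 (limma adjusted p = 0.361, and 0.0400 without NIC-Carm1 replicate 1), -0.39 in NIC-Prmt1 against NIC-Prmt6 (limma adjusted p = 0.539) and 0.04 in NIC-Carm1 against NIC-Prmt6 (limma adjusted p = 0.944). For Il1b, the log2 difference was -0.95 in NIC-Prmt1 against NIC-Prmt6, with a 95% interval of -1.95 to 0.05 (limma adjusted p = 0.214). Those groups did not overlap, nor did they for 26.8% of all genes with NIC-Prmt1 the lower. In NIC-Prmt1 against NIC-Carm1 and NIC-Carm1 against NIC-Prmt6 it was -0.54 and -0.41 (limma adjusted p = 0.346 and 0.489). An antisense gene overlaps the exons of each, Gm14023 with 222 bases of Il1a and Il1bos with 25 bases of Il1b. The strand setting of the counting is not given in the sources used here, so their reads cannot be told apart from those of their partners, but their own normalised read counts were at most 20.7 and 13.6.

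**Figure D1:**
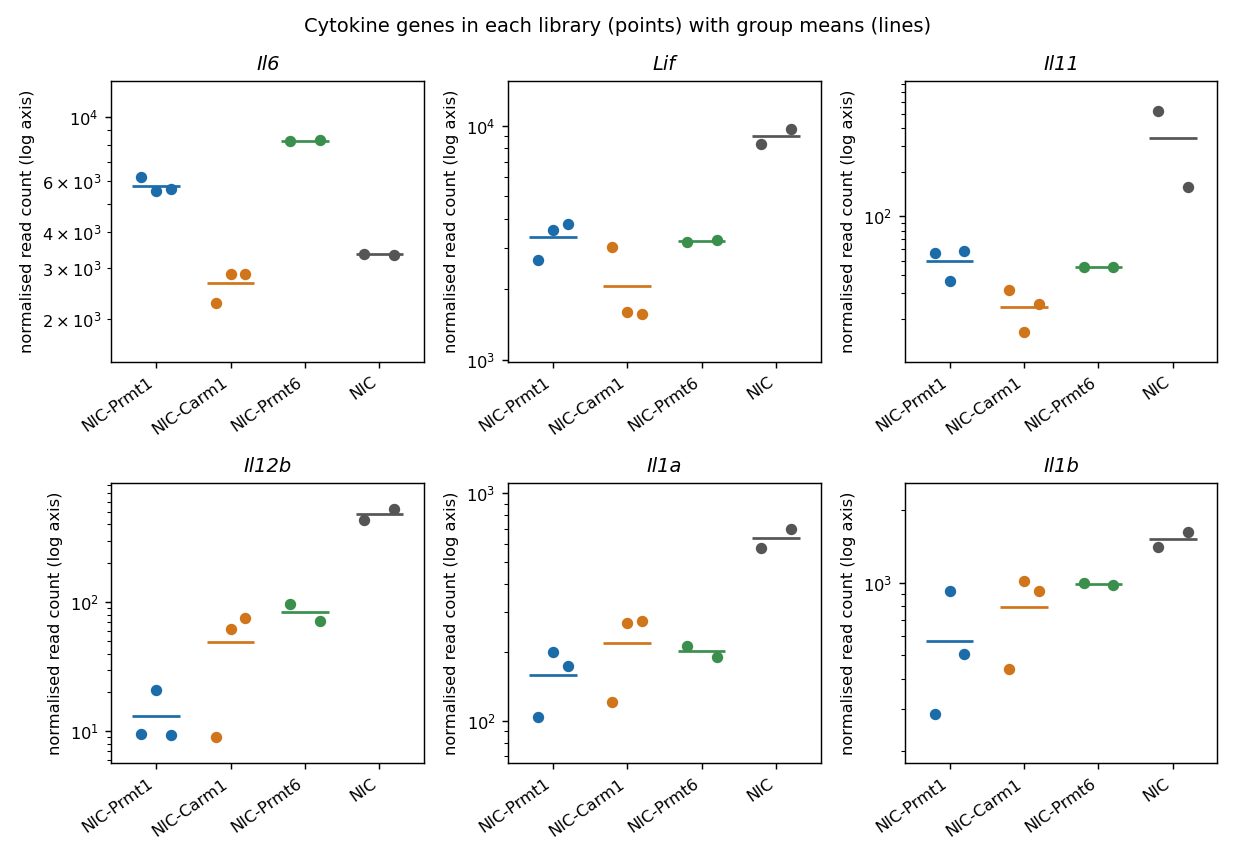
Normalised read count of the 6 cytokine genes in each library (points, log axis, 1 panel a gene) with the group mean as a line. NIC-Prmt6 is highest and NIC-Carm1 lowest for Il6, and for the other 5 genes both NIC libraries lie above every PRMT library.

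Of the 6 members, 5 were lower than NIC in NIC-Prmt1, 6 in NIC-Carm1 and 5 in NIC-Prmt6, and no member overlapped with NIC in any of the comparisons. Of all genes tested, 27.1% lay below NIC without overlap in NIC-Prmt1, 24.5% in NIC-Carm1 and 38.6% in NIC-Prmt6, and 28.2%, 23.4% and 38.1% lay above it. The members were chosen on these contrasts, so nothing is read from their count. Their median log2 difference from NIC was -1.80 in NIC-Prmt1, -1.90 in NIC-Carm1 and -1.56 in NIC-Prmt6, beside -0.0037, 0.0034 and -0.011 over all genes. All of these comparisons share the same NIC libraries.

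**Figure D2:**
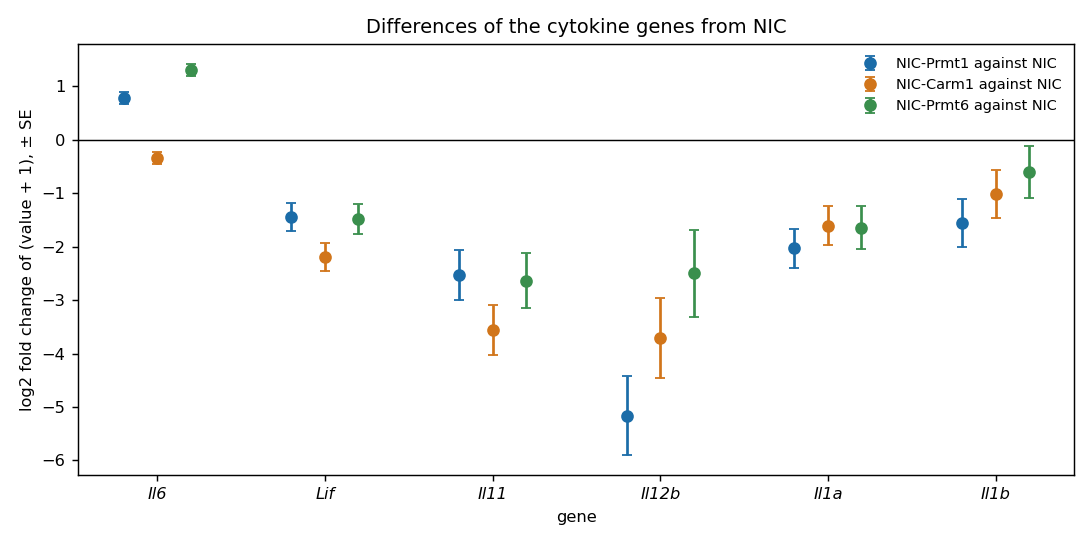
Log2 fold change of (value + 1) against NIC for each cytokine gene (points, ± SE from limma), with NIC-Prmt1, NIC-Carm1 and NIC-Prmt6 side by side and 0 as a line. Il6 lies at 0.78, -0.34 and 1.30, and Il12b has the most negative value, -5.16 in NIC-Prmt1.

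The ranking of the members by level differed between NIC and the PRMT groups. Per kilobase of exon, the mean normalised read count of Il6 was 2378 in NIC-Prmt1, 1098 in NIC-Carm1, 3406 in NIC-Prmt6 and 1379 in NIC, and that of Lif was 769, 474, 739.98 and 2077 in the same order. Lif was thus the most abundant member in NIC and Il6 in each PRMT group. The ratio of Il6 to Lif per kilobase was 4.16, 2.76 and 2.66 in the NIC-Prmt1 libraries, 1.35, 3.23 and 3.27 in NIC-Carm1, 4.63 and 4.57 in NIC-Prmt6, and 0.718 and 0.618 in NIC. The ratio of Il1b to Il1a per kilobase was 2.84 to 4.79 in NIC-Prmt1, 3.50 to 3.91 in NIC-Carm1, 4.87 to 5.33 in NIC-Prmt6 and 2.42 to 2.54 in NIC. Il11 and Il12b were the least abundant members per kilobase in each group, with Il11 at 24.1 in NIC-Prmt1, 11.7 in NIC-Carm1, 21.8 in NIC-Prmt6 and 163 in NIC, and Il12b at 6.70, 24.8, 42.8 and 243.

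Across the 10 libraries, Il12b and both IL-1 genes varied together. On log2(value + 1), Pearson's r was 0.929 between Il12b and Il1a, 0.897 between Il12b and Il1b and 0.887 between Il1a and Il1b, and it was 0.890 between Il11 and Lif. Il6 had an r of -0.315 to 0.037 with the other members. These values describe 10 libraries of 4 groups, and the points share group and library. All members except Il6 were lower than NIC in every PRMT library, and the members were picked on differences from NIC. That shared gap raises r between them and with any other gene that is higher in NIC, so nothing further is read from r. Among 12594 genes with a mean of at least 50, the genes most like Il6 were S1pr3 (r = 0.990), a receptor for sphingosine 1-phosphate, Lpar1 (0.990), a receptor for lysophosphatidic acid, and Ppp1r18 (0.988). Those most like Il11 were Hnrnpc (0.978), Zfp622 (0.977) and Nedd4l (0.977), and those most like Lif were Tubb4b (0.983), Pde4b (0.979) and Tbc1d10a (0.975). Il12b was most like Runx3 (0.980), Rgs1 (0.975) and Arl5c (0.965). Il1a was most like Bcl2a1b (0.986), Snx10 (0.979) and the cytokine gene Il10 (0.978), and Il1b was most like Slc15a3 (0.971), Cd83 (0.960), a surface protein of activated dendritic cells, and Slamf7 (0.951). Bcl2a1b has near-identical copies, so its reads are uncertain.

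Marker sums of other cell types moved with some of these levels. The 6 fibroblast markers, all in the table, summed to a normalised read count of 112274 to 155494 in NIC-Prmt1, 76201 to 94269 in NIC-Carm1, 283365 to 283623 in NIC-Prmt6 and 78319 to 97884 in NIC, and the groups that stood above NIC were those with more Il6 than NIC. The 4 endothelial markers summed to 28548 to 39751 in NIC-Prmt1, 16773 to 17910 in NIC-Carm1, 40426 to 40652 in NIC-Prmt6 and 18243 to 21679 in NIC, with the same groups above NIC. The 7 macrophage markers summed to 7397 to 13079 in NIC-Prmt1, 13463 to 15825 in NIC-Carm1, 15487 to 15931 in NIC-Prmt6 and 9589 to 10486 in NIC. The macrophage markers did not move as one, since in NIC-Prmt6 Csf1r, Cd68 and Mrc1 lay above both NIC libraries while Cd14 had 5662 to 5776 there against 6428 to 8099 in NIC. Mrc1, the mannose receptor gene, had 663 to 1241 in NIC-Prmt1, 567 to 1613 in NIC-Carm1, 2988 to 3011 in NIC-Prmt6 and 63.7 to 247 in NIC. The 7 dendritic cell markers summed to 538 to 1186 in NIC-Prmt1, 748 to 1052 in NIC-Carm1, 1066 to 1072 in NIC-Prmt6 and 953 to 1996 in NIC. Of these markers Ccr7 had a normalised read count of 24.8 to 605 in NIC-Prmt1, 148 to 352 in NIC-Carm1, 110.1 to 121 in NIC-Prmt6 and 363 to 1309 in NIC. Other markers of the list went the other way, with Zbtb46, a transcription factor gene of classical dendritic cells, at 208 to 277 in NIC-Prmt1, 152 to 168 in NIC-Carm1, 403 in both NIC-Prmt6 libraries and 136 to 148 in NIC, and Cd209a at 24.4 to 75.6 in NIC-Prmt1, 22.5 to 60.04 in NIC-Carm1, 156 to 157 in NIC-Prmt6 and at most 10.4 in NIC. Of the neutrophil markers, 4 of 6 were in the table and summed to 93.0 to 173 in NIC-Prmt1, 205 to 222 in NIC-Carm1, 238 to 272 in NIC-Prmt6 and 149 to 159 in NIC, while Ly6g and Mmp8 were not analysed here. Immediate early and heat shock genes, which are induced when cells are handled, went in different directions. Fos had 123071 to 136229 in NIC-Prmt1, 60055 to 97768 in NIC-Carm1, 99774 to 101398 in NIC-Prmt6 and 49934 to 53398 in NIC. The heat shock gene Hspa1a had 33737 to 47942, 21143 to 24701, 44146 to 46809.6 and 71258 to 97824 in the same order, and it shares reads with its near-identical copy Hspa1b. The sum of the 8 genes was 532637 to 650807 in NIC-Prmt1, 287451 to 368568 in NIC-Carm1, 536023 to 541125 in NIC-Prmt6 and 432900 to 531913 in NIC. Skin keratinocyte markers summed to 19671, 96.3 and 2211 in NIC-Prmt1 replicates 1, 2 and 3, and to 76.6 to 99.5 in NIC-Carm1, 41.3 to 43.5 in NIC-Prmt6 and 53.3 to 85.05 in NIC. NIC-Prmt1 replicate 1 was also the lowest NIC-Prmt1 library for Lif, Il1a and Il1b and the highest for Il6. Without it the log2 differences of NIC-Prmt1 from NIC were 0.74 for Il6, -2.62 for Il11, -1.29 for Lif, -4.99 for Il12b, -1.75 for Il1a and -1.14 for Il1b. B cell markers summed to 90.2, 955 and 88.9 in NIC-Prmt1 replicates 1, 2 and 3. Their sums were 864 and 109 in NIC replicates 1 and 2, 380 to 398 in NIC-Carm1 and 114 to 117 in NIC-Prmt6. The libraries with the highest B cell sums of NIC-Prmt1 and NIC also had the highest dendritic cell sums of these groups. Those dendritic cell sums were 1186 in NIC-Prmt1 replicate 2 and 1996 in NIC replicate 1, against 953 in NIC replicate 2. NIC-Prmt1 replicate 2 was the highest NIC-Prmt1 library for Il12b, Il1a and Il1b, while NIC replicate 1 was the lower NIC library for these genes. The part of these cell types and of handling in the cytokine levels was not tested, and in bulk RNA fewer cells of a type and less RNA per cell cannot be told apart.

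**Figure D3:**
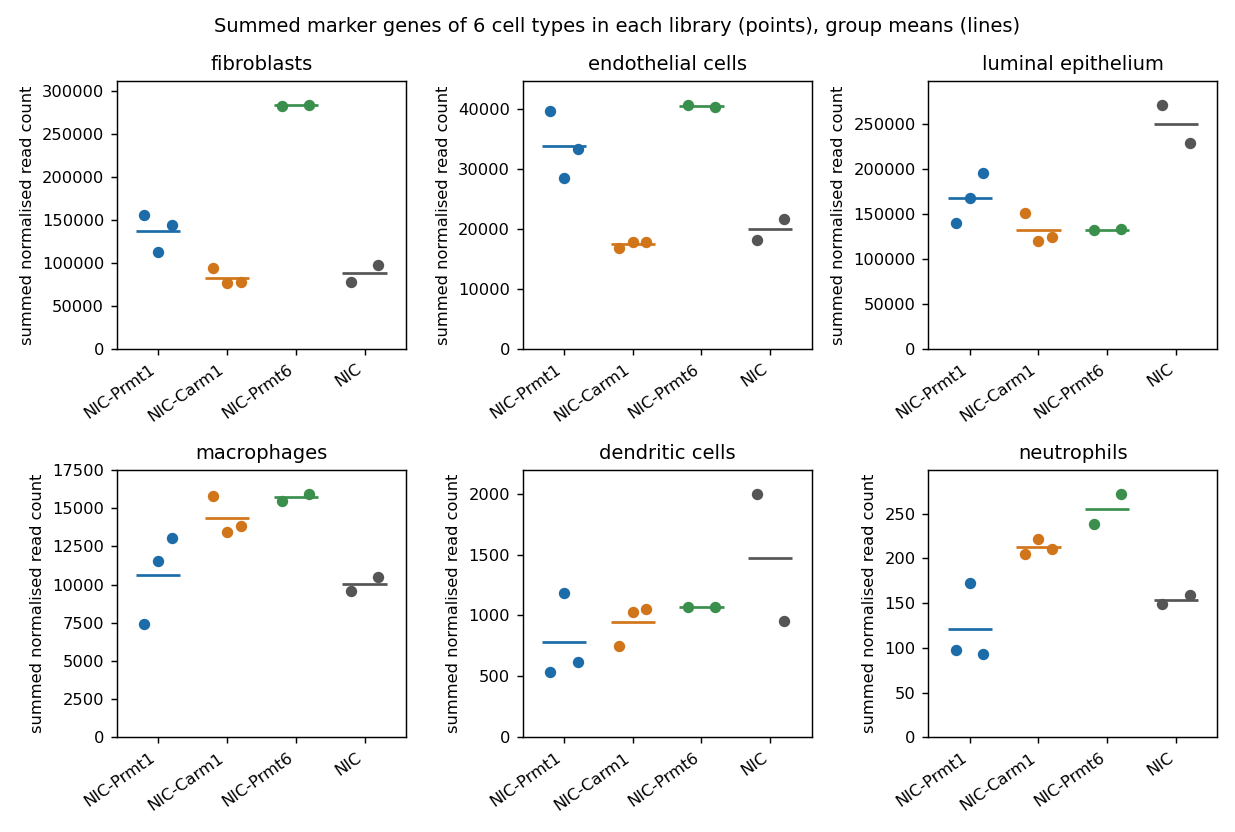
Summed normalised read count of the marker genes of 6 cell types in each library (points, linear axis from 0, 1 panel a list) with the group mean as a line. Fibroblast markers are highest in NIC-Prmt6, at 283365 and 283623, and luminal epithelium markers are highest in NIC.

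The receptors, signal proteins and other ligands of the 3 families were tested with all genes, in 10 lists of 88 genes, of which 82 were in the table and 80 passed the filter on low values. Against NIC, 13 rose and 18 fell in NIC-Prmt1, 6 rose and 13 fell in NIC-Carm1, and 17 rose and 11 fell in NIC-Prmt6 (limma, adjusted p under 0.05). Of all genes tested, 15.2% rose and 14.4% fell in NIC-Prmt1, 6.65% and 9.36% in NIC-Carm1, and 19.0% and 17.8% in NIC-Prmt6. The same shares stand beside the counts of the single lists below, which are given as a description. The median log2 difference of the 80 was -0.17 in NIC-Prmt1, -0.21 in NIC-Carm1 and 0.13 in NIC-Prmt6.

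A feedback inhibitor of the IL-6 signal rose in each PRMT group while Stat3 did not. In NIC-Carm1, Il6, Il11 and Lif were all lower than in NIC. Socs3, which STAT3 induces and which blocks gp130 signalling, had a normalised read count of 33398, 33324 and 37341 in NIC-Prmt1, 14276, 22285 and 21297 in NIC-Carm1, 27006 and 27199 in NIC-Prmt6, and 11028 and 9726.5 in NIC. Every PRMT library lay above both NIC libraries. By group mean Socs3 had the same order as Fos, which no other gene of the immediate early and heat shock list had. The part of handling in the level of Socs3 was not tested. Socs3 rose by 1.74 ± 0.18 in NIC-Prmt1 (limma adjusted p = 0.000438), 0.87 ± 0.18 in NIC-Carm1 (limma adjusted p = 0.0122) and 1.39 ± 0.20 in NIC-Prmt6 (limma adjusted p = 0.000847). Between PRMT groups it was higher in NIC-Prmt1 than in NIC-Carm1 by 0.87 ± 0.16 (limma adjusted p = 0.00520), and in NIC-Carm1 against NIC-Prmt6 the log2 difference was -0.52 ± 0.18 (limma adjusted p = 0.0431). Pias3, another inhibitor of STAT3, rose by 0.64, 0.61 and 0.98 in NIC-Prmt1, NIC-Carm1 and NIC-Prmt6 (limma adjusted p = 0.00977, 0.0196 and 0.00145). Stat3 fell by 0.47 ± 0.14 in NIC-Prmt1 (limma adjusted p = 0.0312) and fell by 0.62 ± 0.14 in NIC-Carm1 (limma adjusted p = 0.0170). The kinase gene Jak2 fell by 0.91 ± 0.09 in NIC-Carm1 (limma adjusted p = 0.000635) and rose by 0.48 ± 0.10 in NIC-Prmt6 (limma adjusted p = 0.00582). Of 10 genes for JAK-STAT3 signal and its inhibitors, 3 rose and 3 fell in NIC-Prmt1, 3 rose and 3 fell in NIC-Carm1, and 5 rose and 1 fell in NIC-Prmt6. The NIC-Carm1 call of Socs3 ended with the groups alone, with nearly identical libraries averaged and without either NIC library (limma adjusted p up to 0.105). The Pias3 calls in NIC-Prmt1 and NIC-Carm1, those of Jak2 in NIC-Prmt6 and those of Stat3 also ended in some alternatives, with a limma adjusted p of at most 0.142. The Stat3 calls ended in 8 and 6 of 21 alternatives in NIC-Prmt1 and NIC-Carm1.

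Among 8 receptor chains of the IL-6 family, 3 rose and 1 fell in NIC-Prmt1, 1 rose and 1 fell in NIC-Carm1, and 3 rose in NIC-Prmt6. Lifr, the LIF receptor chain, had a normalised read count of 4953, 4304 and 3759 in NIC-Prmt1, 3267.5, 3766 and 3768.5 in NIC-Carm1, 3519 and 3575 in NIC-Prmt6, and 2612 and 2776 in NIC. It was higher in each PRMT library than in both NIC libraries, by 0.68 ± 0.12 (limma adjusted p = 0.00374) in NIC-Prmt1, 0.42 ± 0.12 (limma adjusted p = 0.0415) in NIC-Carm1 and 0.40 ± 0.13 (limma adjusted p = 0.0373) in NIC-Prmt6. Il6st, which encodes gp130, had 25156, 17138 and 15430 in NIC-Prmt1, 11022, 13662 and 13416 in NIC-Carm1, 22122 and 22946 in NIC-Prmt6, and 12832 and 12502 in NIC. It rose in NIC-Prmt6 by 0.83 ± 0.21 (limma adjusted p = 0.0115) and in NIC-Prmt1 by 0.57 ± 0.19 (limma adjusted p = 0.0449). The highest NIC-Prmt1 value, 25156, was that of replicate 1, the library with the highest sum of skin keratinocyte markers. Il6ra, the chain specific to IL-6, in NIC-Prmt1 fell by 0.54 ± 0.13 (limma adjusted p = 0.0127). Osmr, the oncostatin M receptor chain, in NIC-Carm1 fell by 0.64 ± 0.08 (limma adjusted p = 0.00191). Il31ra rose in NIC-Prmt6 by 2.78 ± 0.78 (limma adjusted p = 0.0201), at 46.8 against 8.10 in NIC. Il11ra1, the IL-11 receptor chain, did not pass the test in any comparison with NIC. Of these calls, those of Lifr in NIC-Prmt1 and Osmr held in all 21 alternatives, and the others ended in 2 to 10 of them, with an adjusted p of at most 0.211.

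Of the other IL-6 family ligands, Osm had 119 to 266, Clcf1 118 to 307 and Ctf1 83.4 to 199 over the 10 libraries (normalised read count). Clcf1 and Ctf1, both ligands of gp130 receptors, rose in NIC-Prmt1 by 0.53 ± 0.17 (limma adjusted p = 0.0381) and 0.50 ± 0.17 (limma adjusted p = 0.0493), calls that ended in 9 and 14 of 21 alternatives, with an adjusted p up to 0.132 and 0.167. Osm, the gene of oncostatin M, did not pass the test in any comparison with NIC. Il27 had 0 to 9.45 and was below the filter, and Cntf, Ctf2 and Il31 were not analysed here.

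Of 12 known STAT3 targets, 1 rose and 3 fell in NIC-Prmt1, 1 fell in NIC-Carm1 and 2 fell in NIC-Prmt6. Over all genes tested, 15.2% rose and 14.4% fell in NIC-Prmt1, 9.36% fell in NIC-Carm1 and 17.8% fell in NIC-Prmt6. Cebpb, a transcription factor gene, averaged 4245 ± 453 in NIC-Prmt1, 4982 ± 379 in NIC-Carm1, 4081 ± 270.0 in NIC-Prmt6 and 8036 ± 1070 in NIC (SD, n = 3, 3, 2 and 2). It fell in each group, with log2 differences of -0.92 ± 0.12 in NIC-Prmt1 (limma adjusted p = 0.00120), -0.69 ± 0.12 in NIC-Carm1 (limma adjusted p = 0.00651) and -0.97 ± 0.13 in NIC-Prmt6 (limma adjusted p = 0.000715). Lcn2, an iron-siderophore binding protein of the acute phase, fell by 1.42 ± 0.27 in NIC-Prmt1 (limma adjusted p = 0.00494) and fell by 1.94 ± 0.29 in NIC-Prmt6 (limma adjusted p = 0.00118). Hp, the haptoglobin gene, rose in NIC-Prmt1 by 1.28 ± 0.20 (limma adjusted p = 0.00248), at 2637 ± 733 against 1055 ± 82.0 in NIC. With so few genes, nothing is read from the counts of STAT3 targets. Of these calls, that of Cebpb in NIC-Carm1 ended when nearly identical libraries were averaged (limma adjusted p = 0.0564).

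In the IL-1 family, the gene of the natural antagonist of IL-1 fell in each PRMT group. Il1rn, the IL-1 receptor antagonist, had a normalised read count of 85.9, 169.9 and 145 in NIC-Prmt1, 293, 250.02 and 294 in NIC-Carm1, 370.4 and 350.1 in NIC-Prmt6, and 983 and 971 in NIC. Every PRMT library lay below both NIC libraries. Il1rn fell, with log2 differences of -2.92 ± 0.24 in NIC-Prmt1 (limma adjusted p = 0.000204), -1.81 ± 0.24 in NIC-Carm1 (limma adjusted p = 0.00205) and -1.44 ± 0.27 in NIC-Prmt6 (limma adjusted p = 0.00298), and each call held in all 21 alternatives. The log2 difference was -1.11 ± 0.22 in NIC-Prmt1 against NIC-Carm1 (limma adjusted p = 0.00643) and -1.48 ± 0.24 in NIC-Prmt1 against NIC-Prmt6 (limma adjusted p = 0.00804). Il18bp, which binds and blocks IL-18, fell by 0.81 ± 0.18 in NIC-Prmt1 (limma adjusted p = 0.00918) and fell by 0.81 ± 0.20 in NIC-Prmt6 (limma adjusted p = 0.0103). The call in NIC-Prmt1 ended without NIC replicate 2 (limma adjusted p = 0.0636), and that in NIC-Prmt6 ended in 3 alternatives (limma adjusted p up to 0.0845). Of the other ligands, Il33 had 399 to 3322, Il18 19.5 to 66.1, Il1f9 13.8 to 41.6 and Il1f5 3.38 to 45.2 over the 10 libraries, and none of them passed the test against NIC. Il1f10 had 0 to 17.0 and was below the filter, and Il36a and Il36b were not analysed here.

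Of 8 receptors of the IL-1 family, 1 rose and 1 fell in NIC-Prmt1, 1 rose and 2 fell in NIC-Carm1, and 4 rose and 1 fell in NIC-Prmt6. Il1rap, the chain that the IL-1, IL-33 and IL-36 receptors share, had 599, 749.9 and 638 in NIC-Prmt1, 1029.5, 1023 and 964 in NIC-Carm1, 873 and 860.1 in NIC-Prmt6, and 2240.5 and 1645 in NIC. It fell in each PRMT group, with log2 differences of -1.54 ± 0.14 (limma adjusted p = 0.000280) in NIC-Prmt1, -0.93 ± 0.14 (limma adjusted p = 0.00326) in NIC-Carm1 and -1.15 ± 0.15 (limma adjusted p = 0.000630) in NIC-Prmt6. Il1r1, the receptor of IL-1 alpha and beta, had 2383, 2052 and 1633 in NIC-Prmt1, 927, 1517 and 1441 in NIC-Carm1, 4859 and 4752 in NIC-Prmt6, and 1948.5 and 2297 in NIC. It rose in NIC-Prmt6 by 1.183 ± 0.233 (limma adjusted p = 0.00413), and it was also lower in NIC-Prmt1 and in NIC-Carm1 than in NIC-Prmt6 (log2 differences of -1.27 and -1.92, limma adjusted p = 0.00933 and 0.000218). The IL-36 receptor gene Il1rl2 and the IL-33 receptor gene Il1rl1 rose in NIC-Prmt6 by 1.78 ± 0.17 (limma adjusted p = 0.000139) and 2.46 ± 0.46 (limma adjusted p = 0.00311), and the decoy receptor gene Il1r2 by 1.36 ± 0.36 (limma adjusted p = 0.0160). Mast cells express Il1rl1, and 4 mast cell markers summed to 993 to 2338 in NIC-Prmt1, 772 to 1985 in NIC-Carm1, 3595 to 3642 in NIC-Prmt6 and 130.4 to 251 in NIC. The mean normalised read count of Il1rl1 was 105 in NIC-Prmt1, 105 in NIC-Carm1, 492 in NIC-Prmt6 and 93.3 in NIC, and the part of mast cells in it was not tested. Fibroblast and endothelial marker sums were highest in NIC-Prmt6 as well. The part of these cells in the levels of Il1r1, Il1r2 and Il1rl2 was not tested. The call of Il1r2 ended in 4 alternatives (limma adjusted p up to 0.1001), and the NIC-Prmt6 calls of Il1r1, Il1rl1, Il1rl2 and Il1rap held in all 21.

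Of 8 genes of the inflammasome and IL-1 processing, 1 rose and 2 fell in NIC-Prmt1, 2 fell in NIC-Carm1, and 2 rose and 3 fell in NIC-Prmt6. Nlrp3, the sensor of the inflammasome that matures IL-1 beta, had 264, 325 and 262 in NIC-Prmt1, 163, 328 and 302 in NIC-Carm1, 515 and 589 in NIC-Prmt6, and 1009 and 826 in NIC. It fell by 1.69 ± 0.26 in NIC-Prmt1 (limma adjusted p = 0.00227) and fell by 1.85 ± 0.26 in NIC-Carm1 (limma adjusted p = 0.00278), and in NIC-Prmt6 the log2 difference was -0.73 ± 0.29 (limma adjusted p = 0.0740). Gsdmd, which forms the pore that lets IL-1 beta out, rose by 0.70 ± 0.14 in NIC-Prmt1 (limma adjusted p = 0.00704) and by 1.15 ± 0.16 in NIC-Prmt6 (limma adjusted p = 0.000711). Casp1, the protease that cuts the IL-1 beta precursor, in NIC-Prmt6 fell by 1.17 ± 0.35 (limma adjusted p = 0.0257), a call that ended in 4 alternatives (limma adjusted p up to 0.164). The genes of sensor, protease and pore thus did not move in a single direction.

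Of 16 genes for the signal of the IL-1 receptor and NF-kB, 2 rose and 5 fell in NIC-Prmt1, 1 rose and 3 fell in NIC-Carm1, and 3 rose and 1 fell in NIC-Prmt6. Myd88, the adaptor of the receptor, rose by 0.65 ± 0.12 in NIC-Prmt1 (limma adjusted p = 0.00392) and 0.75 ± 0.13 in NIC-Prmt6 (limma adjusted p = 0.00193). Irak3, an inhibitor of this signal, fell by 0.83 ± 0.13 in NIC-Prmt1 (limma adjusted p = 0.00205) and fell by 0.97 ± 0.13 in NIC-Carm1 (limma adjusted p = 0.00190). Nfkb1, which encodes the NF-kB subunit p50 and its precursor, fell by 1.04 ± 0.13 in NIC-Carm1 (limma adjusted p = 0.00146). It also fell by 0.56 ± 0.13 in NIC-Prmt1 (limma adjusted p = 0.0111), a call that ended without NIC replicate 1 (limma adjusted p = 0.0907). Among 5 receptor and signal genes of the IL-12 family, Il12rb2 in NIC-Prmt1 fell by 1.36 ± 0.45 (limma adjusted p = 0.0442), at 9.73 ± 3.30 against 27.8 ± 15.4 in NIC, and that call ended in 11 of 20 alternatives (limma adjusted p up to 0.296). Il23r was not analysed here.

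**Figure D4:**
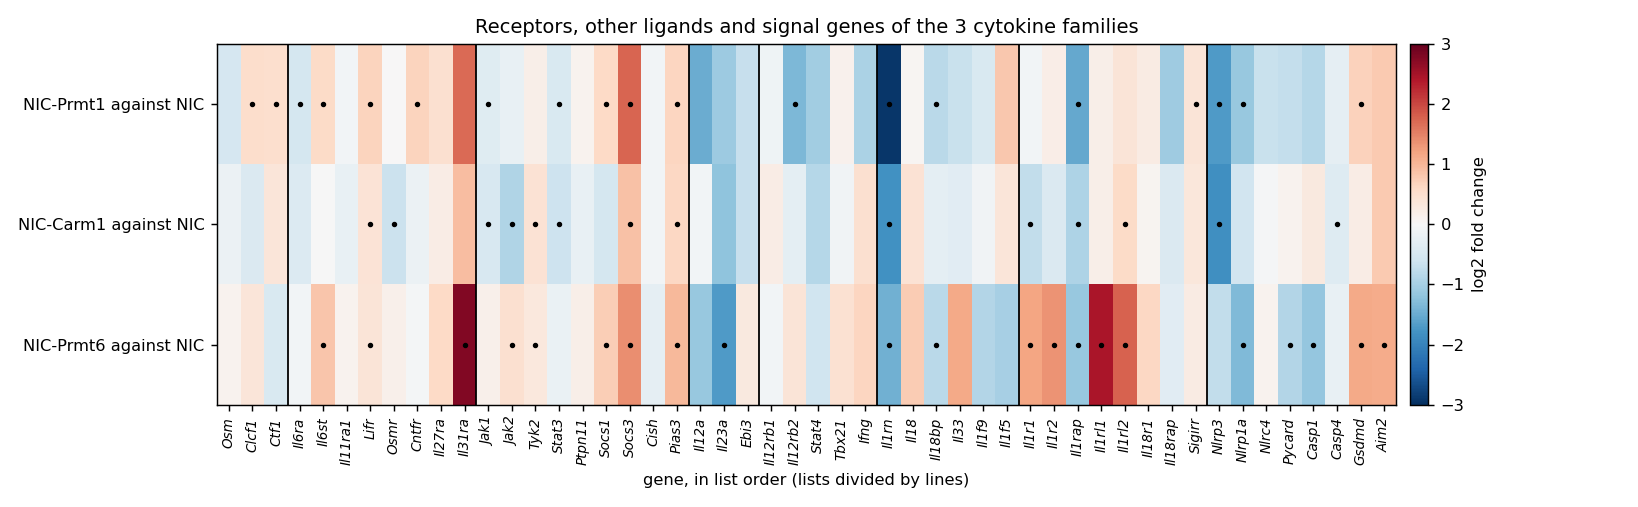
Log2 fold change of (value + 1) against NIC, as colour from blue (lower) to red (higher), for ligand, receptor, JAK-STAT and inflammasome genes of the 3 families, with lists divided by lines. A dot marks an adjusted p under 0.05. Il1rn and Il1rap are blue and Socs3 and Lifr red with a dot in all 3 rows, and the IL-1 receptor genes Il1r1, Il1rl1 and Il1rl2 are red in the row of NIC-Prmt6.

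Between PRMT groups, the same 80 genes were tested in the same fit. Of them, 17 were higher and 9 lower in NIC-Prmt1 than in NIC-Carm1, 2 were higher and 9 lower in NIC-Prmt1 than in NIC-Prmt6, and 6 were higher and 28 lower in NIC-Carm1 than in NIC-Prmt6. Of all genes tested, 14.9% were higher and 11.8% lower in the first of these comparisons, 2.54% and 4.94% in the second, and 18.4% and 20.9% in the last. Osmr, Il6st and Jak2 were each lower in NIC-Carm1 than in NIC-Prmt6, with log2 differences of -0.79 ± 0.08 (limma adjusted p = 0.000172), -0.83 ± 0.19 (limma adjusted p = 0.00721) and -1.39 ± 0.09 (limma adjusted p = 2.09e-05). With nearly identical libraries averaged, limma called 0 of the 80 in NIC-Prmt1 against NIC-Prmt6, where 3 were higher and 14 lower at an unadjusted p under 0.05. With all libraries, edgeR called 2 higher and 10 lower in that comparison and DESeq2 3 and 17.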

How the data were processed

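Poly-A RNA of 10 libraries was sequenced. Per the submitters' processing notes, the tools were TopHat2 2.0.10, HTSeq 0.6.0 and DESeq 1.18.0 on mm10. The sources used here name neither the annotation nor the strand setting. The deposited values are a signal per gene, the normalised read count, which the authors made by dividing read counts by a size factor per library. In each library all values were whole multiples of the smallest step (tolerance 0.01), so whole reads were recovered. Each of the 16290 genes had at least 10 reads in its highest library.

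The planned design named edgeR for raw counts and limma for scaled values. As the values were scaled, the main test was limma-trend (limma 3.58.1, R 4.3.3) on log2(value + 1), for the 15694 genes that reached a value of 10 in 2 or more libraries. A joint fit of all 10 libraries had 4 group means and 6 residual degrees of freedom, with Benjamini-Hochberg adjustment over all genes and a threshold of 0.05. The fit was tested on simulated data. Alternatives were edgeR 4.0.16 and DESeq2 1.42.0 on recovered reads, other pseudocounts (0.5 and 5), no filter or a value of at least 50, upper-quartile and TMM rescaling, the 2 groups alone, a replicate block, averaging of nearly identical libraries, and leaving out each library.

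The members, lists and tests were chosen with earlier results of these data known. No p is given for a member against NIC, nor for Il6, Il11 and Il12b in any comparison, since these values chose the members. The p-values of Lif, Il1a and Il1b between PRMT groups are not independent of that choice either, since it was made with all groups known. Genes named were the members, from each list the 2 with the smallest adjusted p among those called against NIC, the ligands, and the 3 genes most correlated with each member (mean at least 50). A few more list genes were named after their values were seen, and not every gene picked is reported. A total of 2 list genes enter the counts but are not reported here by name. Gene positions are from GENCODE on GRCm38, and promoters are from RefSeq on GRCm38.p6.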

Additional observations from a re-analysis of the deposited data

How the results depend on the processing

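The number of members below NIC stayed at 5 in NIC-Prmt1, 6 in NIC-Carm1 and 5 in NIC-Prmt6 under all 21 alternatives, and no member changed sign against NIC in them. Between PRMT groups, small log2 differences changed sign in some alternatives: Il11 and Lif in NIC-Prmt1 against NIC-Prmt6 (0.11 and 0.04, with ranges of -0.0081 to 0.32 and -0.06 to 0.20) and Il1a in NIC-Carm1 against NIC-Prmt6 (0.04, with a range of -0.16 to 0.42). The counts of called genes moved more. Over all genes, the 4645 calls of NIC-Prmt1 against NIC became 2775 with the 2 groups alone and 2601 with nearly identical libraries averaged. The 2513 of NIC-Carm1 against NIC became 1441 with the groups alone, 1667 with a replicate block and 340 on averaging, and the 5778 of NIC-Prmt6 against NIC became 1664 on averaging. With the groups alone, those 5778 calls became 6974. Between PRMT groups, averaging gave 1355 calls in place of 4199 in NIC-Prmt1 against NIC-Carm1, 21 in place of 1175 in NIC-Prmt1 against NIC-Prmt6 (2133 with DESeq2 and 571 with the block) and 1262 in place of 6157 in NIC-Carm1 against NIC-Prmt6. The groups alone gave 2825, 1233 and 7065 calls in the same comparisons. Leaving out 1 library each gave 2277 to 5642, 709 to 3380 and 2661 to 6633 calls against NIC in NIC-Prmt1, NIC-Carm1 and NIC-Prmt6, and 2626 to 4694, 47 to 2237 and 2575 to 6784 between PRMT groups in the order above.

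Of the 80 receptor, ligand and signal genes, the 13 higher in NIC-Prmt1 than in NIC became 7 with the groups alone, 8 with the block and 7 on averaging. In NIC-Carm1 the 6 higher became 2, 3 and 0 under the same settings (6 at an unadjusted p under 0.05 in limma on averaging, and 6 with edgeR and with DESeq2 on all libraries), and the 13 lower became 7 on averaging. In NIC-Prmt6, averaging gave 7 in place of 17 higher and 4 in place of 11 lower. In NIC-Prmt1 against NIC-Carm1, the 17 higher and 9 lower became 9 and 4 with the groups alone and 6 and 2 on averaging. In NIC-Prmt1 against NIC-Prmt6, the 2 higher and 9 lower became 0 and 0 on averaging (limma, 3 and 14 at an unadjusted p under 0.05), and 17 were lower with DESeq2. In NIC-Carm1 against NIC-Prmt6, the 6 higher became 0 (limma, 5 at an unadjusted p under 0.05, with 6 by edgeR and 7 by DESeq2 on all libraries) and the 28 lower became 10 on averaging. Leaving out 1 library each gave 6 to 14 higher and 9 to 25 lower in NIC-Prmt1 against NIC, 0 to 8 and 8 to 21 in NIC-Carm1, and 7 to 19 and 4 to 13 in NIC-Prmt6. Between PRMT groups it gave 11 to 20 and 3 to 12, 0 to 4 and 0 to 18, and 2 to 7 and 13 to 31. The single call of Lif, Il1a and Il1b between PRMT groups became 0 with edgeR, the groups alone, the block or averaging (in limma on averaging, 0 also at an unadjusted p under 0.05) and 2 with DESeq2, and leaving out 1 library gave 0 to 3. Averaging and the groups alone leave fewer libraries in the fit, yet over all genes the groups alone gave more calls in some comparisons. The cause of these shifts was not tested.

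The labels do not state whether the replicate numbers pair the libraries. Same-numbered libraries of different groups had a correlation of their deviations from the group mean of -0.132 to 0.1 over 13 pairs. The median was -0.0093 there and 0.0070 over 24 other pairs. In NIC and in NIC-Prmt6 the deviations of the libraries mirror each other, so these values are not independent and cannot exclude a pairing. With the block, 3552 of 3742 calls were shared with the 4645 of NIC-Prmt1 against NIC. Il12b rests on as few as 8 reads in a library and Il11 on as few as 20, where counting error limits the fold.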
